A study of Mus musculus with 24 samples.

Results

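General macrophage and phagocyte markers are genes that tissue macrophages, and to differing extents other phagocytes, transcribe in many of their states. The 10 genes described here were taken by name as such markers, though with earlier results of these data known: Adgre1, Csf1r, Itgam, Tyrobp, Fcer1g, Lyz2, Ctss, Cd68, Gpnmb and Lgals3. They are 10 of the 55487 genes in the deposited tables, matched by Ensembl identifier to symbols of the mouse build GRCm38, and all 10 passed the filter on low values. They were followed in gastrocnemius muscle of 24 male C57BL/6J mice, 12 weeks old per the labels, 8 mice and 8 libraries to a group. Their age at the start is given as 10 weeks, and the 8 days of treatment alone do not span these ages. The uncasted group had free hindlimbs and received sterile water by intraperitoneal injection, 2 injections a day for 8 days. The casted group received the same injections while both hindlimbs were immobilized in casts for the 8 days. The group casted with MOTS-c was immobilized in the same way and was injected on the same schedule with MOTS-c, a peptide encoded within the mitochondrial ribosomal RNA, at 15 mg/kg/day. No uncasted mice given MOTS-c are among the groups, so an effect of the peptide outside a cast cannot be read from these data.

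Macrophages of skeletal muscle lie between the fibres and around vessels, clear dying cells and debris, and are joined after injury by monocytes from the blood. Their growth and survival depend on signals through the receptor encoded by Csf1r, and engulfed material is passed from surface receptors to lysosomes, where cathepsins and other hydrolases break it down. Several of the 10 genes are not private to macrophages: Itgam, Tyrobp, Fcer1g and Lyz2 are also transcribed by neutrophils and monocytes, and Lgals3, Gpnmb, Cd68 and Ctss have been found in other cells as well. RNA of whole muscle was measured, so a change in the number of cells and a change in RNA per cell cannot be told apart.

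Values are TPM, a share of each library's total corrected for transcript length, scaled here between libraries and called scaled TPM below. Log2 changes are on the scale of log2(scaled TPM + 1), which understates changes of low genes, with standard errors (SE) and adjusted p-values from limma over the 14690 genes tested. A gene is said to have risen or fallen when its adjusted p is under 0.05. Between 19832 and 21755 genes had a TPM above 0 per library, and sequencing depth cannot be read from TPM. The muscle origin of the RNA was plain from 8 fibre genes, among them Acta1 and Ckm. Their scaled TPM summed to between 113360 and 128640 in the uncasted libraries and between 54365 and 81921 in the casted ones. Of the 8, 7 fell and 1 rose with casting, where 27.7% of all tested genes fell and 28.7% rose. With TPM as deposited 4 fell and 1 rose, where 7.43% of all tested genes fell and 62.2% rose. TPM adds up to the same total in every library, and on deposited TPM the median gene was 0.39 (log2) higher in casted than in uncasted libraries, and 0.34 higher with MOTS-c than in uncasted libraries. Changes below are therefore relative to the middle of all genes.

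RefSeq promoter windows (GRCm38.p6, 250 bases before to 50 after the start) were matched for 7 of the 10 genes, all but Adgre1, Csf1r and Tyrobp. Shown are those of the 4 genes whose casted values all lay above every uncasted value, Cd68 (chr11:69666121-69666420, minus strand), Ctss (chr3:95526536-95526835, plus strand), Gpnmb (chr6:49036268-49036567, plus strand) and Lgals3 (chr14:47373610-47373909, plus strand). Capitals mark matches, on either strand, to TGANTCA, the AP-1 motif, GAGGAAG, a PU.1 core, or TCATGTG, an M-box.
Cd68: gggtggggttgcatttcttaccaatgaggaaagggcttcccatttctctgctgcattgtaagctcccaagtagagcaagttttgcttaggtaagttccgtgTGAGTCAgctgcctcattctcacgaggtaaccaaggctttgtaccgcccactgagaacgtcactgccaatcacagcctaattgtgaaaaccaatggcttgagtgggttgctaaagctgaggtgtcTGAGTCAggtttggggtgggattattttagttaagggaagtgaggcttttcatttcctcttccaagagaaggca
Ctss: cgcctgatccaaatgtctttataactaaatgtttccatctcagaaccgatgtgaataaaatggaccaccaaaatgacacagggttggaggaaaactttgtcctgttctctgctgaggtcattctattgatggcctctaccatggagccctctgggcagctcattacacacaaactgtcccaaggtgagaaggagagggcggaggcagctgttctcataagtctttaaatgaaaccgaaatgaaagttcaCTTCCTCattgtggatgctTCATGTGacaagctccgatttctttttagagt
Gpnmb: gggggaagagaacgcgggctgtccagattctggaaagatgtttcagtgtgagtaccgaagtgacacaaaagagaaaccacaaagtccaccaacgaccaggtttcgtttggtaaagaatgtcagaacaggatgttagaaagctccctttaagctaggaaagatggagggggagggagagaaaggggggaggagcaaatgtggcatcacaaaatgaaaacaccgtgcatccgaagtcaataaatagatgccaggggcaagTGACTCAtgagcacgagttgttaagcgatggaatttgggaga
Lgals3: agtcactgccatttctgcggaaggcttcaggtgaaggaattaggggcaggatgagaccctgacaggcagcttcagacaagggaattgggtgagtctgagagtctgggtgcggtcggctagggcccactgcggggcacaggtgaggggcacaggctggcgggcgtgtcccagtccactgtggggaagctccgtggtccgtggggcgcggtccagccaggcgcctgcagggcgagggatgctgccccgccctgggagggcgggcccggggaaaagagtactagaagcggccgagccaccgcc
The Cd68 window held the AP-1 letters at positions -149 and -24 and the Gpnmb window at position 9, counted from the RefSeq start. The RefSeq start of Lgals3 lies within the annotated gene span given below and not at its first base, so its window covers another start than the one that opens the span. In the Ctss window a PU.1 core stood at -1 and an M-box at 19, and the Lgals3 window held none of the 4 motifs searched, of which CACGTG, an E-box of lysosomal genes, was in none of the 7 windows. A PU.1 core was also present in the window of Itgam, in 2 copies at -84 and 32. Of 32851 promoter windows of the same length, 7.81% held the AP-1 letters, 13.6% the PU.1 core, 7.15% CACGTG and 3.77% the M-box. These are matches of letters only, and no binding was measured.

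The first comparison asks how immobilization changed these markers. With casting 8 of the 10 genes rose and none fell, where 28.7% of all tested genes rose and 27.7% fell. Lgals3 and Cd68 rose most, to 11.6 and 7.56 times their uncasted means, followed by Gpnmb (3.97), Ctss (2.44) and Itgam (2.32). Tyrobp, Fcer1g and Lyz2 rose to between 1.50 and 1.84 times, and Adgre1 and Csf1r did not pass the test. In 4 genes (Cd68, Ctss, Gpnmb and Lgals3) no casted value overlapped an uncasted one, which held upward for 11.5% of all tested genes. The median log2 change of the 10 genes was 0.66, against 0.01 for all genes tested. On deposited TPM all 10 rose, as did 62.2% of all genes, and the median change of the 10 was 1.08 against 0.39.

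**Figure D1:**
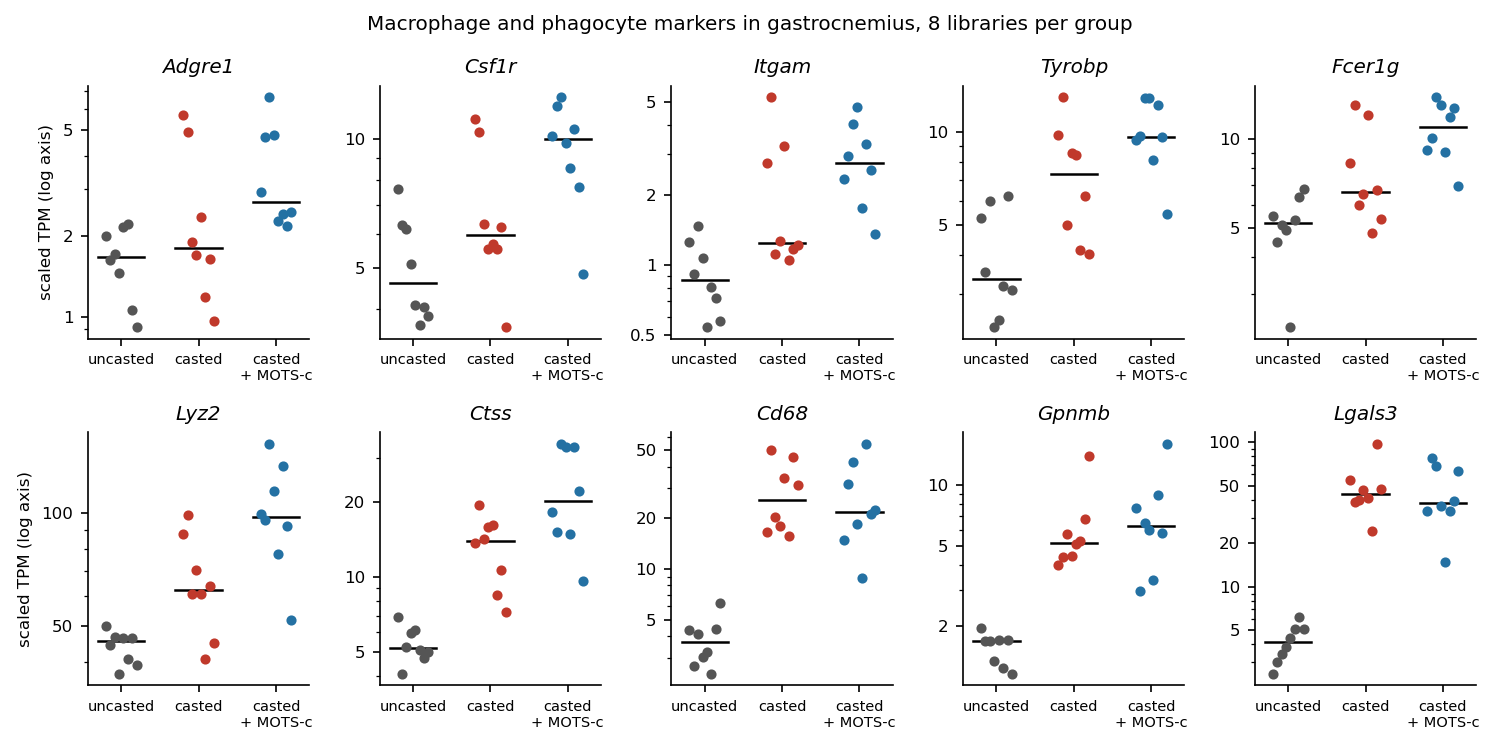
Scaled TPM (log axis) of the 10 markers in each library, by group; points are libraries, lines are medians and n = 8 in each group. Cd68, Ctss, Gpnmb and Lgals3 show casted points that all lie above the uncasted ones, while the points of Csf1r and Adgre1 overlap between these groups.

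Among the surface receptors, Csf1r (chromosome 18, 61100598 to 61132149), the receptor tyrosine kinase for the growth factors CSF1 and IL34, ran from 3.68 through a median of 4.60 to 7.62 scaled TPM in uncasted libraries. In casted libraries the lowest, median and highest values were 3.63, 5.94 and 11.1 scaled TPM. The groups overlapped broadly: 2 casted libraries, replicates 1 and 2, lay above all uncasted ones and 1, replicate 8, lay below them. The log2 change was 0.32 ± 0.18 (SE), with an adjusted p of 0.137 in limma. Adgre1 (chromosome 17, 57358691 to 57483527), which encodes the adhesion receptor long used to stain mouse macrophages, ran from 0.916 through 1.67 to 2.23 scaled TPM without a cast and from 0.969 through 1.81 to 5.68 with a cast. The same casted replicates 1 and 2, and replicate 5, exceeded every uncasted library, and the other casted values lay within the uncasted range. Its log2 change of 0.31 ± 0.23 did not pass the test (limma adjusted p = 0.250). Itgam (chromosome 7, 128062640 to 128118491), the alpha subunit of an integrin that binds complement-coated particles, had the lowest mean level of the 10 genes in every group. It ran from 0.542 through 0.864 to 1.47 scaled TPM in uncasted and from 1.06 through 1.24 to 5.25 in casted libraries. It rose by 0.60 ± 0.21 (log2, limma adjusted p = 0.0174). Before scaling its TPM was 0.42 in uncasted replicates 5 and 8, below the 0.5 that the filter asked of 8 libraries. Itgam thus passed the filter only with casted libraries, which favoured a rise. Here too casted replicates 1, 2 and 5 alone lay above the uncasted range.

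The adaptors carry the signals of receptors that lack a signalling tail of their own. Tyrobp (chromosome 7, 30413760 to 30417585), the partner of TREM and related receptors, ran from 2.34 through 3.35 to 6.19 scaled TPM in uncasted and from 4.03 through 7.32 to 12.9 in casted libraries. Of the casted libraries 5 lay above all uncasted ones, and the log2 change was 0.72 ± 0.21 (SE, limma adjusted p = 0.00543). For Fcer1g (chromosome 1, 171229572 to 171234365), the chain shared by activating Fc receptors, the uncasted values were 2.31, 5.22 and 6.78 scaled TPM (lowest, median, highest) and the casted values 4.82, 6.65 and 13.04. Only 3 casted libraries stood above the uncasted range, and the rise of 0.51 ± 0.18 (log2, limma adjusted p = 0.0198) was near the threshold. It was lost when any of uncasted replicate 5 (adjusted p = 0.0521), casted replicate 2 (0.0504) or casted replicate 5 (0.0509) was left out.

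Among genes of secreted and lysosomal products, Lyz2 (chromosome 10, 117277331 to 117282321), the lysozyme of myeloid cells, had the highest mean level of the 10 genes in every group. It ran from 37.3 through 45.5 to 49.9 scaled TPM without a cast and from 40.8 through 62.4 to 98.6 with a cast, with 6 casted libraries above the uncasted range, and rose by 0.53 ± 0.18 (log2, limma adjusted p = 0.0127). Ctss (chromosome 3, 95526786 to 95556403), a lysosomal cysteine protease that trims the invariant chain of MHC class II, ran from 4.10 through 5.18 to 6.90 scaled TPM in uncasted libraries. In the casted group the values were 7.23, 14.0 and 19.4, so that the lowest casted library lay just above the highest uncasted one. Its log2 change was 1.10 ± 0.22 (limma adjusted p = 0.000119).

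Cd68 (chromosome 11, 69664213 to 69666153), a heavily glycosylated membrane protein of late endosomes and lysosomes, ran from 2.41 through 3.69 to 6.29 scaled TPM without a cast and from 15.7 through 25.5 to 50.5 with a cast. The means were 3.82 ± 1.26 (SD, n = 8) and 28.9 ± 13.6 scaled TPM, with a wide gap between the groups. The rise was 2.54 ± 0.29 on the log2 scale (limma adjusted p = 8.72e-08), the 34th largest of 14690 genes. Gpnmb (chromosome 6, 49036546 to 49070929), a transmembrane glycoprotein that marks phagocytes under lysosomal load, ran from 1.16 through 1.68 to 1.96 scaled TPM in uncasted and from 4.01 through 5.18 to 13.9 in casted libraries. All casted values were above the uncasted ones, and 7 of them lay close together with replicate 8 far above. The log2 change was 1.41 ± 0.23 (limma adjusted p = 1.09e-05). Lgals3 (chromosome 14, 47367751 to 47386160), the lectin galectin-3 that gathers on damaged lysosomes and is also secreted, ran from 2.52 through 4.13 to 6.14 scaled TPM without and from 24.3 through 43.9 to 97.4 with a cast. Its means were 4.20 ± 1.22 and 48.8 ± 21.5 scaled TPM (SD, n = 8), and the rise of 3.20 ± 0.26 (log2, limma adjusted p = 6.34e-10) was the 11th largest of all tested genes.

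Several of these calls depended on which casted libraries were used. With casted replicates 5 to 8 alone in the casted group, 4 of the 10 genes rose (28.5% of all genes did): Cd68, Ctss, Gpnmb and Lgals3. Lyz2, Itgam, Tyrobp and Fcer1g then lost their call, with log2 changes of 0.24, 0.43, 0.43 and 0.40 and limma adjusted p from 0.0972 to 0.314. With replicates 1 to 4 alone all 10 rose (20.7% of all genes), Csf1r by 0.59 and Adgre1 by 0.69, whereas replicates 5 to 8 gave 0.05 and -0.07. For Lgals3 the values were 3.17 with replicates 1 to 4 and 3.23 with 5 to 8, and for Cd68 2.38 and 2.71. The difference between the casted replicates 1 to 4 and 5 to 8 itself passed for none of the 10 genes (limma adjusted p from 0.107 to 0.934), and for only 100 of all 14690 genes.

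**Figure D2:**
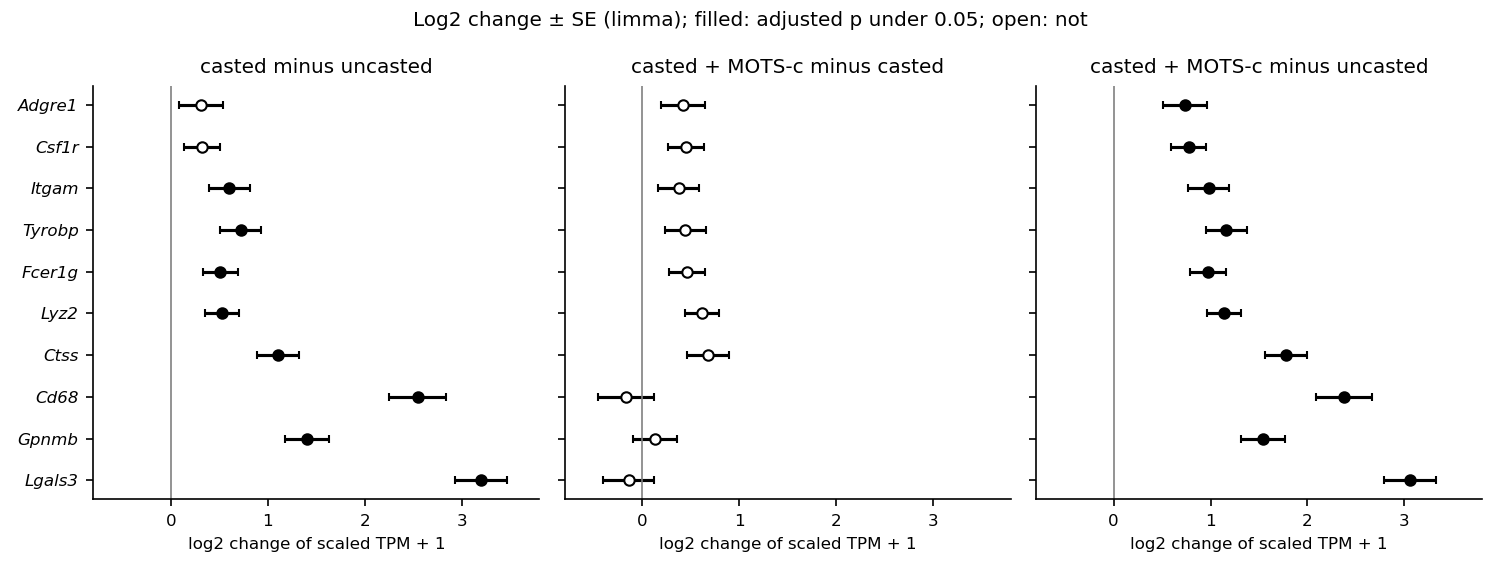
Log2 change of scaled TPM + 1 with its SE for each of the 10 markers in the 3 comparisons; filled points have a limma adjusted p under 0.05 and open points do not. Filled points number 8 for casting, 0 for MOTS-c in the cast and 10 for MOTS-c in the cast against no cast.

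The order of the genes by mean level differed between groups. In uncasted muscle Lyz2 stood alone at 43.9 scaled TPM, its values clear of all others, and Ctss (5.40), Csf1r (5.10), Fcer1g (5.10), Lgals3 (4.20), Tyrobp (4.01) and Cd68 (3.82) followed with ranges that overlapped from each to the next. Below a gap came Adgre1 (1.65), Gpnmb (1.56) and Itgam (0.92), whose ranges overlapped too. In casted muscle the order was Lyz2, Lgals3, Cd68, Ctss, Fcer1g, Tyrobp, Csf1r, Gpnmb, Adgre1 and Itgam, and each gene's range overlapped that of its neighbour. Lgals3 and Cd68 thus passed from the fifth and the seventh place to the second and the third, and the order of means with MOTS-c was the same as in the casted group, though by medians there Csf1r (9.98) stood above Tyrobp (9.65) and Itgam (2.75) above Adgre1 (2.70). Only neighbours' ranges were set side by side here, as a description of the levels.

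To see which genes moved apart from the rest, each was set against Csf1r in the same library, a ratio that barely depends on scaling. Relative to Csf1r, 4 of the other 9 genes rose with casting, where 3.91% of all tested genes did and 34.2% fell. The ratio of Lgals3 to Csf1r ran from 0.330 through 0.917 to 1.52 in uncasted and from 3.72 through 6.80 to 15.7 in casted libraries. No casted ratio overlapped an uncasted one, and the change of 2.89 ± 0.29 (log2, limma adjusted p = 1.60e-10) was the largest of the 9. Cd68 went from a median ratio of 0.665 to 4.05, with 7 of 8 casted libraries above the uncasted range (2.23 ± 0.28, limma adjusted p = 3.87e-08). Ctss went from 1.17 to 1.93 (0.80 ± 0.22, adjusted p = 0.00327) and Gpnmb from 0.287 to 0.901 (1.01 ± 0.31, adjusted p = 0.00820; without casted replicate 8, 0.74 and 0.0255). The other 5 genes had changes against Csf1r between -0.12 (Adgre1) and 0.38 (Tyrobp), none of which passed (limma adjusted p from 0.128 to 0.668). For Itgam, whose low level the scale compresses, the change was 0.12 but up to 0.55 across alternative fits, uncalled in each. Its ratio lay above the uncasted range in 4 casted libraries. The ratios show that Lgals3, Cd68, Gpnmb and Ctss changed more than Csf1r did, and not that any gene was steady.

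**Figure D3:**
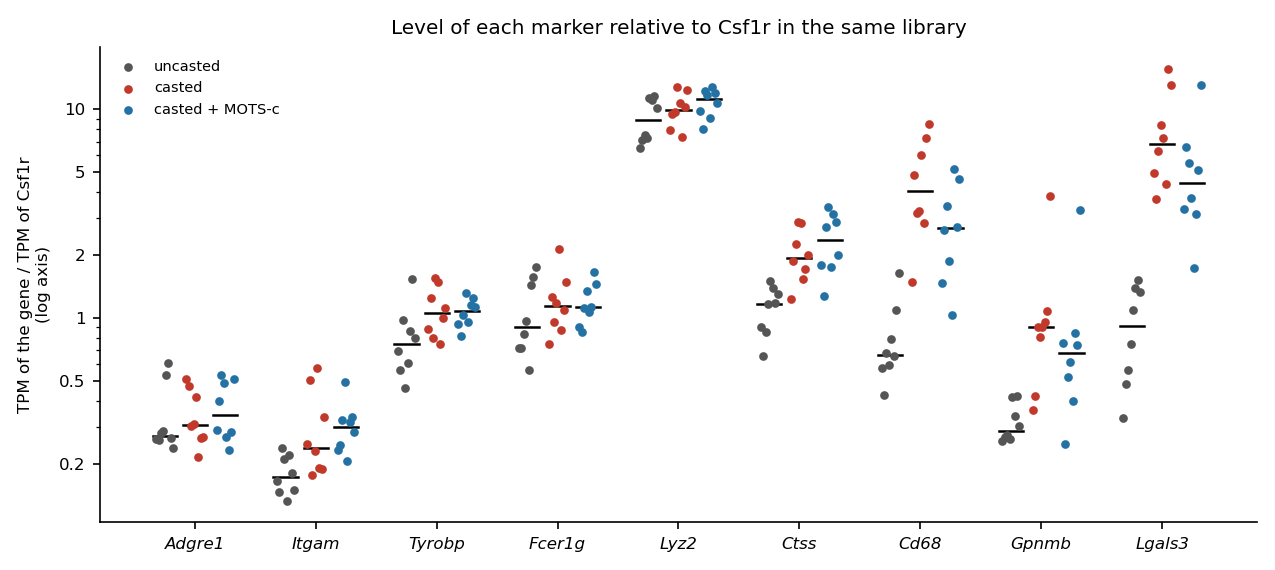
TPM of each of the other 9 markers divided by TPM of Csf1r in the same library (log axis), by group, 8 libraries each, with lines at the medians. Casted ratios of Lgals3 run from 3.72 to 15.7, above the uncasted highest of 1.52, whereas those of Adgre1 (medians 0.272 and 0.306) overlap.

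Genes that overlap or lie near the markers were checked, since the sources used here do not say whether counting used strand. Eif4a1, a translation initiation factor gene that ends 782 bases upstream of Cd68 on the same strand, also rose, from 75.8 ± 3.45 to 190.5 ± 32.4 scaled TPM (SD, n = 8; log2 change 1.30 ± 0.13, limma adjusted p = 6.61e-09). The ratio of Cd68 to Eif4a1 had a median of 0.0485 in uncasted and 0.140 in casted libraries, and the highest uncasted ratio, 0.0816, was below the lowest casted one, 0.0833. The gene on the other side of Cd68, Mpdu1, at 1570 bases, changed by 0.09 (adjusted p = 0.455). Malsu1, which follows Gpnmb at 2865 bases on the same strand, rose by 0.97 (adjusted p = 9.38e-08). Hmgxb3 overlaps Csf1r by 873 bases on the opposite strand and changed by -0.06 (adjusted p = 0.451; 0.39 higher on deposited TPM). Gm49368, a predicted gene that overlaps Itgam by 55809 bases on the same strand, was listed at 0 in all uncasted libraries and reached 0.258 scaled TPM at most. Whether reads of these neighbours entered the markers' values was not tested. Lyz1, a near-identical copy of Lyz2, had a mean of 4.78 scaled TPM in uncasted and 4.08 in casted libraries (log2 change -0.18, adjusted p = 0.159; 0.23 higher on deposited TPM). No source used here says how reads were divided between Lyz1 and Lyz2, which leaves the values of both uncertain.

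The libraries of a group also differed among themselves. Casted replicate 2 had the highest value of its group for 6 of the 10 genes, and the lowest values came from casted replicate 6 for 5 genes and replicate 8 for 4. In the MOTS-c group replicate 3 was highest for 6 genes and replicate 8 lowest for 6. Pearson's r of log2(scaled TPM + 1) was computed for the 45 pairs of genes within each group (n = 8), with exact permutation p over all pairings of the 8 libraries, adjusted over the pairs of all 3 groups. The median r over the 45 pairs was 0.20 in the uncasted, 0.47 in the casted and 0.50 in the MOTS-c group. In the casted group 8 pairs passed the adjusted threshold and in the MOTS-c group 11, all of them between Ctss, Lyz2, Adgre1, Csf1r, Itgam, Tyrobp and Fcer1g. No pair with Cd68, Gpnmb or Lgals3 passed in either of these groups, and in the MOTS-c group no pair with Adgre1 did. In the uncasted group 2 pairs passed, each with Lgals3 or Gpnmb in it. Whether the correlations differ between groups or between genes was not tested, and all genes of a library share its scaling.

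The pair Itgam and Tyrobp in the MOTS-c group had the lowest exact p, with r = 0.94 (adjusted p = 0.00670 by exact permutation) and Spearman's rho of 0.98 (adjusted exact p = 0.0536). Without the 2 libraries farthest from the median of Itgam r was 0.96. In the casted group Adgre1 and Csf1r had r = 0.95 (exact permutation p = 0.00183, adjusted 0.0275) and rho = 0.83 (exact p = 0.0154, adjusted 0.122), and r was 0.71 without 2 libraries. The integrin and the Fc chain, Itgam and Fcer1g, gave r = 0.94 in the casted group (adjusted p = 0.0187 by exact permutation), rho = 0.88 (adjusted exact p = 0.0889) and r = 0.81 without 2 libraries. In uncasted muscle Csf1r and Lgals3 ran in opposite directions, with r = -0.94 (adjusted p = 0.0187 by exact permutation), rho = -0.90 (adjusted exact p = 0.0685) and r = -0.84 without 2 libraries. Both genes also followed the replicate number there. Lgals3 went from 2.52 scaled TPM in replicate 1 to 6.14 in replicate 7 and 5.13 in replicate 8. Csf1r went from 7.62 in replicate 1 to 3.86 in replicate 8. The permutation treats the libraries as interchangeable, so it cannot set a relation between the genes apart from a trend with the number. The other uncasted pair to pass was Lyz2 and Gpnmb, with r = 0.92 (adjusted p = 0.0324 by exact permutation), rho = 0.79 (adjusted exact p = 0.157) and r = 0.96 without 2 libraries. No relation passed after adjustment when ranks were used, the lowest adjusted p being 0.0536.

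**Figure D4:**
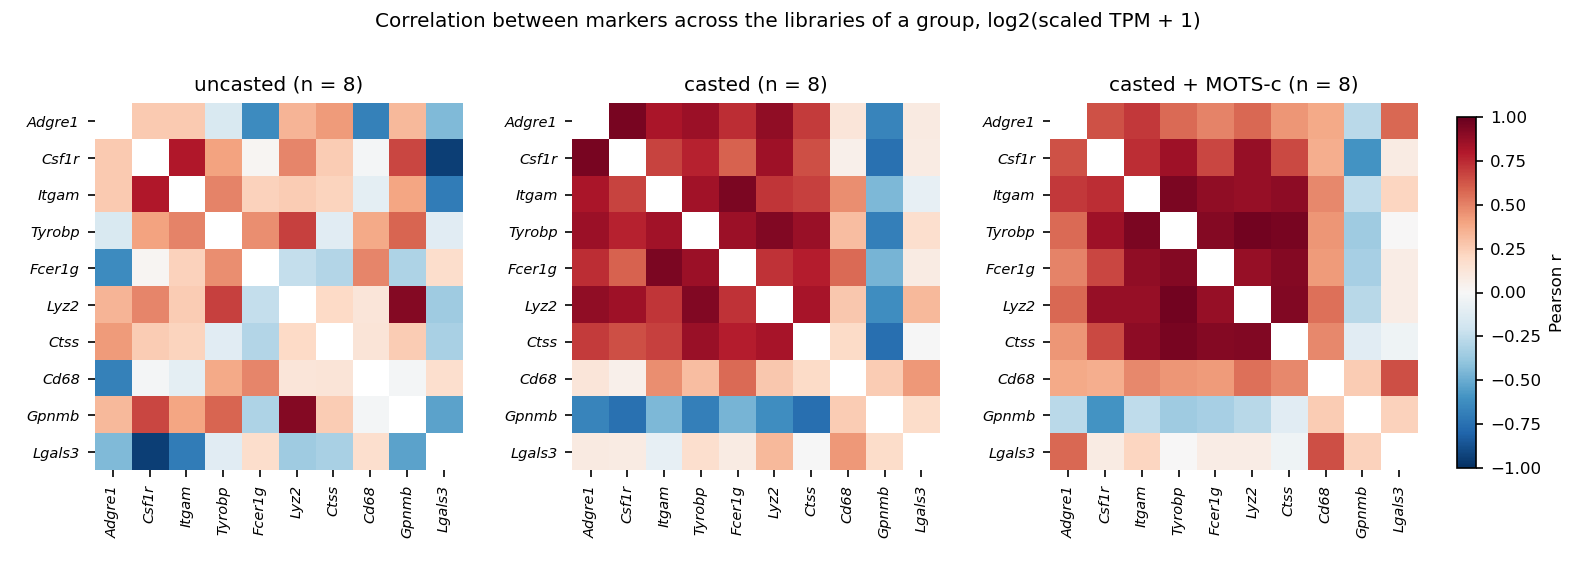
Pearson's r between the markers across the 8 libraries of each group, on log2(scaled TPM + 1), 1 map per group. The median r over the 45 pairs is 0.20, 0.47 and 0.50 in the uncasted, casted and MOTS-c maps, and 2, 8 and 11 pairs pass the adjusted threshold.

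Over all 24 libraries the genes of most similar pattern also differed between the markers; these values of r describe a shared response to casting as well as spread within groups. Lgals3 was most like Aif1l (r = 0.972) and like Chrna1 and Chrnb1 (0.968 and 0.967), which encode subunits of the acetylcholine receptor of muscle. Cd68 was most like Myl12a (0.962), a myosin light chain gene, and then Arhgdig and Thyn1, and Gpnmb was most like Naf1 (0.924), Pnrc1 and Gm43148. The nearest genes of the other 7 included many of leukocytes. Ctss was most like the Fc receptor genes Fcgr3 (0.958) and Fcgr2b (0.952) and the complement gene C1qb (0.949). Lyz2 was most like C1qc (0.964), C3ar1 and C1qa, and Tyrobp was also nearest to C1qc (0.931), followed by Aoah and Itgb2. Csf1r was most like Cybb (0.955), a subunit of the phagocyte oxidase, Ptprc (0.922) and Tgfbi. Itgam was most like the mannose receptor gene Mrc1 (0.957), Pirb and Ms4a6c, Fcer1g like Pirb (0.916), Tlr13 and Laptm5, and Adgre1 like Pld4 (0.908), Dock2 and Arhgap30.

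The second comparison asks whether MOTS-c changed the markers in casted muscle. None of the 10 passed the test in either direction, at a background of 0.0136% of genes higher and 0.00681% lower in limma (13.5% of genes had an unadjusted p under 0.05). The log2 change, uncalled in every case, was above 0 for 8 of the 10, with a median of 0.43 against -0.00 for all genes. Values above 0 were also frequent in some of the lists described below, none of them called. They were 12 of 12 fibroblast and endothelial genes, 8 of 8 muscle fibre genes and 10 of 12 genes shared by leukocytes (medians 0.20, 0.12 and 0.31). Resident macrophage genes had 10 of 11 (median 0.43) and adaptor signalling genes 16 of 16 (0.24). Other lists were divided, with 9 of 17 Csf1r ligands and myeloid regulators (0.01) and 5 of 9 recruited monocyte genes (0.04). Cathepsins and cystatins had 6 of 12 (-0.01) and integrin partners 2 of 5. The part of other cells in the values of the 10 markers was not tested. Lyz2 ran from 51.8 through 97.6 to 153 scaled TPM with MOTS-c, and 7 of 8 libraries exceeded the casted median of 62.4. The groups overlapped, and the change was 0.61 ± 0.18 (log2, limma adjusted p = 0.179). Ctss ran from 9.61 through 20.2 to 34.1 scaled TPM, again with 7 libraries above the casted median, and its change of 0.67 ± 0.22 had an adjusted p of 0.210. Adgre1 (2.19, 2.70 and 6.63 scaled TPM; lowest, median and highest), Itgam (1.36, 2.75 and 4.79) and Fcer1g (6.98, 11.0 and 13.9) had all 8 MOTS-c libraries above the casted medians. Their ranges nevertheless overlapped those of the casted group, and the log2 changes were 0.42, 0.38 and 0.46 (limma adjusted p = 0.416, 0.434 and 0.295). Csf1r (4.82, 9.98 and 12.5 scaled TPM) and Tyrobp (5.42, 9.65 and 12.9) each had 7 libraries above the casted median, with changes of 0.45 and 0.44 (adjusted p = 0.306 and 0.367).

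For Lgals3, Cd68 and Gpnmb, which had risen most with casting, the change with MOTS-c was near 0, while Ctss, next in that order, had 0.67. Both comparisons share the casted libraries, so a high casted value raises the change with casting and lowers the change with MOTS-c. Cd68 ran from 8.79 through 21.7 to 54.4 scaled TPM with MOTS-c and Lgals3 from 14.8 through 38.0 to 78.3, and in each 3 of 8 libraries exceeded the casted median. Their log2 changes were -0.17 ± 0.29 and -0.14 ± 0.26 (limma adjusted p = 0.830 and 0.846), and without MOTS-c replicate 5, the lowest library for both, 0.02 and 0.06. Gpnmb ran from 2.97 through 6.24 to 15.9 scaled TPM, with a change of 0.13 ± 0.23 (adjusted p = 0.833). No gene of the 10 had MOTS-c values clear of the casted ones, which was so upward for 0.0408% of all genes. The outcome depended on which casted libraries served as the reference: against casted replicates 5 to 8 alone, Lyz2 (0.91, adjusted p = 0.00795), Ctss (0.96), Adgre1 (0.80), Csf1r (0.72) and Tyrobp (0.73) were higher with MOTS-c, at a background of 4.62% of genes. Against replicates 1 to 4 alone none was, and without MOTS-c replicate 8 only Lyz2 was higher (0.74, adjusted p = 0.0465).

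The third comparison sets casted muscle with MOTS-c against uncasted muscle and shares the uncasted libraries with the first and the MOTS-c libraries with the second. All 10 genes were higher with MOTS-c and a cast than without a cast, where 26.0% of all genes were, and the median log2 change was 1.15 (0.01 for all genes). Csf1r was higher by 0.77 (limma adjusted p = 0.00110) and Adgre1 by 0.73 (adjusted p = 0.00916), the 2 genes that had not passed in casted muscle without the peptide. Lgals3 and Cd68 again led, at 3.06 (adjusted p = 2.36e-09) and 2.37 (4.13e-07), followed by Ctss (1.78), Gpnmb (1.54), Tyrobp (1.16) and Lyz2 (1.14). Itgam and Fcer1g were higher by 0.98 and 0.97. For Cd68, Ctss, Lyz2, Fcer1g, Gpnmb and Lgals3 no value of the MOTS-c group overlapped an uncasted one, which held upward for 7.26% of all genes. That Csf1r and Adgre1 pass here and not in the first comparison does not show a difference between the casted groups, whose direct test is the second comparison.

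Genes of the pathways around the markers were followed in lists chosen for their roles. The genes said to lead a list are those of smallest p. Of all tested genes 28.7% rose and 27.7% fell with casting, and 62.2% rose on deposited TPM. A count near these shares does not by itself show a response of a list, and no list was tested as a whole. Of 16 tested partners in signalling through the adaptors, 5 rose and 1 fell with casting (median log2 change 0.21), led by the Fc receptor genes Fcgr2b (0.90, limma adjusted p = 2.86e-05) and Fcgr3 (0.64, 0.000693). Lyn, a kinase of the same pathway, fell by 0.30 but was 0.09 higher on deposited TPM, where 12 rose and none fell. Among 17 ligands of Csf1r and myeloid regulators 2 rose and 3 fell. Runx1, a transcription factor, rose from 0.761 ± 0.191 to 10.4 ± 3.65 scaled TPM (SD, n = 8; 2.64, adjusted p = 1.10e-09), and Csf2rb, a cytokine receptor chain, by 0.79. Maf, a transcription factor, fell by 0.66 and was 0.15 lower, without a call, on deposited TPM. The ligands themselves, named here for that role, were Csf1 at 5.12 ± 1.04 in uncasted and 4.89 ± 1.85 in casted libraries (-0.09, adjusted p = 0.614, and 0.33 higher on deposited TPM) and Il34, which fell by 0.54 (adjusted p = 0.00130), a call absent on deposited TPM (-0.14). On that scale 11 of the 17 rose and 1 fell, near the 62.2% of all genes that rose.

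Of 5 tested genes of the integrin partner Itgb2 and its ligands and linkers, 3 rose, Icam1 by 1.99, Tln1 by 1.17 and Itgb2 by 0.62, and Icam2 fell by 0.45 (0.06 lower, with no call, on deposited TPM). Of 13 phagocytic and scavenger receptors and their bridging molecules 4 rose and 3 fell, with a median of -0.14 (0.31 and 8 rises with no fall on deposited TPM). These rises were near the shares of all tested genes on the 2 scales, 28.7% and 62.2%. Tgm2 and Gas6 rose by 0.60 and 0.56, and Mertk and Cd36 fell by 0.34 and 0.30 but were 0.01 and 0.21 higher on deposited TPM. Of 16 genes of lysosomal and lipid-associated macrophages 7 rose, led by Cd63 (1.21) and the cathepsin gene Ctsz (1.0), and 4 fell, led by Lpl (-1.04, and -0.53 on deposited TPM), the lipoprotein lipase of fibres and fat. Cd9 fell by 0.37 and was 0.13 higher on deposited TPM, where 11 of the 16 rose and 1 fell, beside rises in 62.2% of all genes. With MOTS-c against casting alone no gene of any list rose or fell.

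Markers of particular leukocytes and of other cells moved beside the 10 genes. The shares of all tested genes to set beside their counts were again 28.7% risen and 27.7% fallen, and 62.2% risen on deposited TPM. Of 11 tested markers of resident macrophages 8 rose, among them C1qb (0.65) and F13a1 (0.73), and 2, Cbr2 and Folr2, fell by 0.44 and 0.36 (0.06 and 0.05 higher on deposited TPM, where 9 of the 11 rose and none fell). Of 9 tested genes of recruited monocytes 7 rose, led by Hp (1.87), which other cells transcribe too, and Thbs1 (1.11), and on deposited TPM all 9 did. Neutrophil markers were low: of 11 listed 5 were tested and 4 of these rose, with S100a9 at 1.90 and Retnlg at 0.93. The list summed to 0.679 to 2.50 scaled TPM in uncasted and 5.65 to 20.6 in casted libraries. Genes so low without a cast could pass the filter through the casted groups alone, so the filter favoured rises among those tested. The defining neutrophil genes Ly6g, Camp, Ngp and Ltf were among the 6 below the filter. None of 14 lymphocyte and natural killer markers reached the filter, and their sum lay between 0.149 and 1.83 scaled TPM in both these groups. Of 6 dendritic and mast cell genes Zbtb46 rose by 0.40, and Kit and Mcpt4 fell by 0.49 and 0.41 (0.24 and 0.02 lower, with no call, on deposited TPM). Of 12 genes shared by all leukocytes 5 rose, led by Cd53 (0.64) and Lcp1 (0.67), and Ptprc changed by 0.34 (adjusted p = 0.0702), close to the 0.32 of Csf1r and the 0.31 of Adgre1. On deposited TPM 11 of these 12 genes rose, Ptprc by 0.63 (adjusted p = 0.00181). The pan-leukocyte genes summed to 28.6 to 38.1 scaled TPM in uncasted and 27.5 to 74.1 in casted libraries. Of 12 fibroblast and endothelial genes 9 fell, led by Emcn (-0.73) and Esam (-0.55; 0.27 and 0.06 lower on deposited TPM), and Cldn5 rose by 0.62; on deposited TPM 4 of the 12 rose and 5 fell. The part of these cells in the changes of the 10 markers was not tested.

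**Figure D5:**
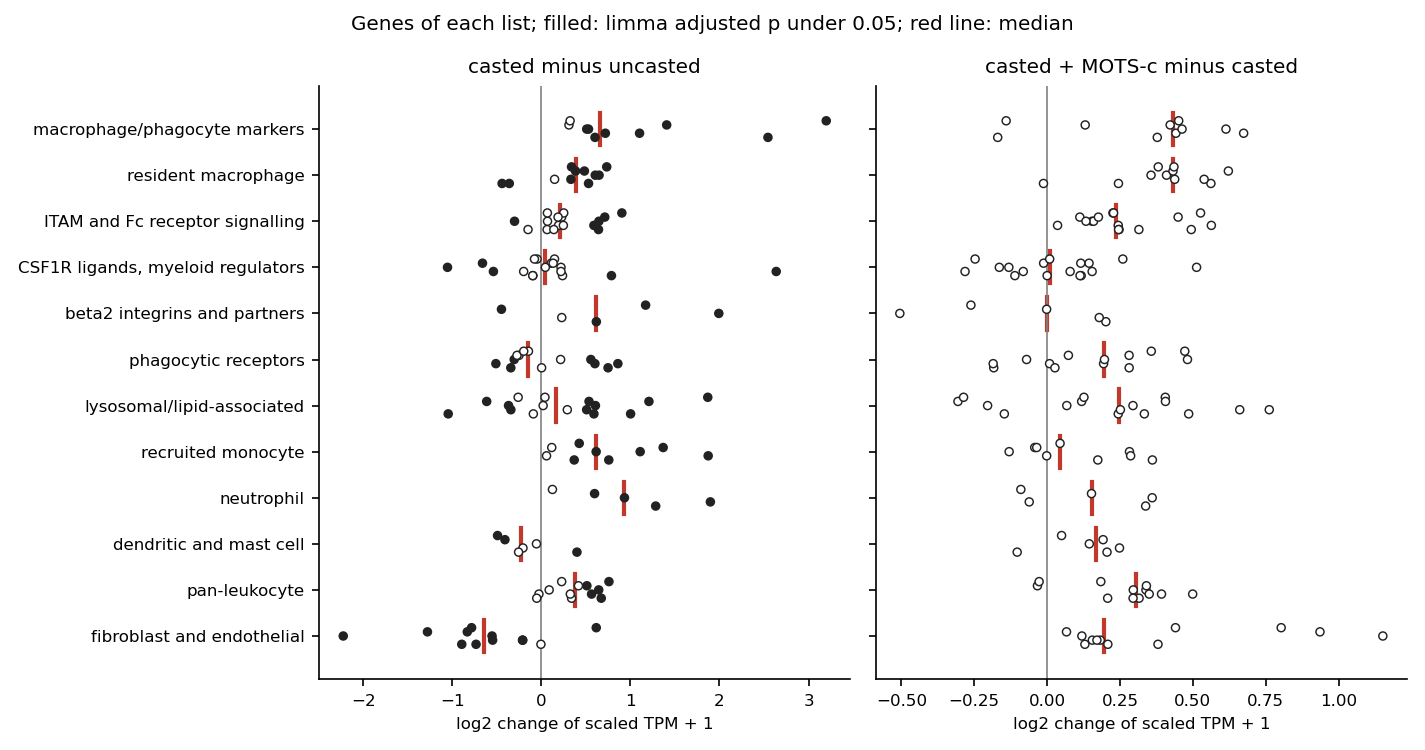
Log2 change of scaled TPM + 1 of each tested gene, by list, for casting and for MOTS-c in the cast; filled points have a limma adjusted p under 0.05 and the red line is the median of a list. The 10 markers have medians of 0.66 and 0.43, and the resident macrophage list has 8 rises and 2 falls with casting and none with MOTS-c.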

How the data were processed

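Poly-adenylated RNA of gastrocnemius muscle was sequenced in 24 mice, 8 per group, 1 library per mouse. The deposited tables hold TPM, made by the authors with FastQC, STAR, RSEM and DESeq2 on GRCm38.p6, per the submitters' processing notes; versions, annotation release and strand are not given in the sources used here. Symbols were taken from GENCODE annotation of GRCm38 (55227 of 55487 identifiers matched), and promoters from RefSeq. TPM were scaled by an unweighted trimmed mean of log ratios (30% of ratios, 5% of levels trimmed) and the test took genes that reached a TPM of 0.5 in 8 or more libraries. All 24 libraries entered 1 fit of 3 group means with limma 3.58.1 (R 4.3.3) and a mean-variance trend on log2(scaled TPM + 1), two-sided, with Benjamini-Hochberg adjustment over 14690 genes and a threshold of 0.05. Ratios to Csf1r used the same fit on log2(deposited TPM + 1) of each gene minus that of Csf1r. Correlations were computed with Python 3.11.15 and scipy 1.17.1. The procedure was tested on simulated data.

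Named are the 10 markers, genes overlapping or within 5 kb of them that were measured, and in each of 15 context lists (192 genes) the 2 genes of smallest p in each direction among those past the threshold for casting; the 3 genes of most similar pattern were taken by Pearson's r over 24 libraries. The markers and lists were chosen with earlier results of these data known. Csf1, Il34, Itgb2, Ptprc and Lyz1 were named outside the rule, and 2 genes it took are not reported here. Alternatives were other scalings, pseudocount 0.1, no filter, 2-group fits, library weights, the replicate block, casted replicates 1 to 4 or 5 to 8 alone, and leaving out each library. Depth is unknown from TPM, so no counting error can be given. P-values measure the spread between mice.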

Additional observations from a re-analysis of the deposited data

Results flagged for a closer look

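Of 30 sets of 8 values (10 markers in 3 groups), 3 had a highest library whose gap to the next was above Dixon's 95% critical value of 0.526 of the range; chance gives about 1 in 20. Gpnmb was at 13.9 scaled TPM in casted replicate 8, where the gap was 0.725 of the range, and its casting change was 1.24 without that library (limma adjusted p = 1.62e-05). Gpnmb was also at 15.9 scaled TPM in MOTS-c replicate 8 (0.544 of the range); without it the change with MOTS-c was -0.04 against casting alone and 1.37 against uncasted muscle. Both libraries were the lowest of their groups for several of the other markers, casted replicate 8 for 4 and MOTS-c replicate 8 for 6 of the 10. Lgals3 was at 97.4 scaled TPM in casted replicate 7 (0.579 of the range), and its casting change was 3.04 without it.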

How the results depend on the processing

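With casted replicates 5 to 8 alone, 4 of the 10 markers rose with casting (8 with all libraries), as did 28.5% of all genes. With the same replicates 5 markers were higher with MOTS-c than with casting alone (0 with all), as were 4.62% of all genes. Leaving out each library in turn, 7 to 9 rose with casting and 0 to 1 were higher with MOTS-c (1 without MOTS-c replicate 8). In every case 10 were higher with MOTS-c and a cast than without a cast, and 4 rose relative to Csf1r. Over all 14690 genes these fits gave 4018 to 4265 rises with casting and 0 to 41 genes higher with MOTS-c. With MOTS-c and a cast against no cast, 3614 to 3981 genes were higher. Relative to Csf1r, 3.91% of all genes rose with all libraries, and the share was not taken for these fits. Csf1r rose with casting without casted replicate 8 (0.42, adjusted p = 0.0489). With the replicate block 9 rose, Csf1r gaining a call (limma adjusted p = 0.0155), none was higher with MOTS-c, and no other call of a marker changed. Over all genes, rises with casting numbered 3037 to 9132 across the alternatives that did not leave out single libraries, the block among them. Same-numbered libraries correlated with medians of 0.036 (uncasted and casted), -0.029 (casted and MOTS-c) and 0.075 (uncasted and MOTS-c), and -0.245 to 0.371 over all 24 pairs. The best match had the same number for 1, 2 and 4 of 8 libraries in these comparisons. The numbers were not taken to pair the mice, and whether they carry a shared structure was not tested. In all, 317 of 330 single-gene values for casting kept their status as called or uncalled, 7 lost and 6 gained a call. For MOTS-c against casting 334 of 340 kept it and 6 gained a call. All 340 against uncasted muscle and all 251 relative to Csf1r kept it. No called value changed sign. Some uncalled values did, such as those with casted replicates 5 to 8 alone for Adgre1 with casting (-0.07, from 0.31) and Gpnmb with MOTS-c (-0.14, from 0.13). Over all genes, MOTS-c against casting gave 0 to 678 higher and 0 to 839 lower across alternatives. On deposited TPM the split of casting calls over all genes moved to 9132 higher and 1091 lower. Fits of 2 groups without MOTS-c replicate 5 and the Csf1r ratio on scaled TPM were added after seeing the data. Depth cannot be read from TPM, so the counting error of Itgam, Adgre1 and Gpnmb, the markers of lowest mean level in every group, is unknown. Their SE for casting were not the largest of the 10, that of Cd68 being larger.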

Other observations

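Relatives of the lysosomal and lectin markers were followed as well, where 28.7% of all tested genes rose and 27.7% fell with casting, and 62.2% rose on deposited TPM. Of 7 tested galectin and lysozyme genes, 2 rose with casting, Lgals8 (0.83, limma adjusted p = 2.84e-07) and Lgals1 (0.72, from 244 ± 20.5 to 409 ± 74.3 scaled TPM, SD, n = 8), and Lgals9 fell by 0.46 but was 0.01 lower, without a call, on deposited TPM, where 4 of the 7 rose and none fell. The rise of Lgals3 by 3.20 was larger than either. Of 12 cathepsin and cystatin genes 6 rose and 3 fell (10 and 0 on deposited TPM), led by smallest p by Cstb (1.45), a cytosolic inhibitor of cathepsins, and Ctsz (1.0). Ctsl, named after its value was seen, rose from 96.6 ± 2.84 to 398 ± 215 scaled TPM (1.87, adjusted p = 4.20e-06). Ctsk, the collagen-degrading cathepsin, and Ctsa fell by 0.61 and 0.17; on deposited TPM Ctsk was 0.19 lower without a call and Ctsa 0.34 higher. With MOTS-c against casting alone no gene of either list rose or fell.

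Trem2, a receptor that signals through the product of Tyrobp, was named after its value was seen. Its mean was 0.220 ± 0.185 scaled TPM without a cast and 0.879 ± 0.498 with a cast (SD, n = 8). With the peptide as well the mean was 1.24 ± 0.660. Trem2 rose with casting by 0.59 (limma adjusted p = 0.00450). Its uncasted mean lay below the 0.5 TPM of the filter, which it passed through the casted groups, so the filter favoured a rise.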
